A study of Mus musculus with 43 samples.

Results

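The G1/S and DNA replication genes described here are a fixed list of 46 genes, chosen by symbol for their part in entry into S phase and in DNA replication. All 46 of the 46 were listed in both expression tables of the series, among 13845 genes in 1 table and 13817 in the other, and all 46 passed the filter of at least 1 TPM in at least 3 libraries (12159 and 12325 genes passed). TPM is a level per transcript length scaled to a fixed total per library, so levels of different genes can be compared on it. Every library came from PD798, a single line grown from a pancreatic ductal adenocarcinoma of a genetically engineered mouse, in which Pdx1-driven Cre acts on alleles that include a conditional p53 allele over wild type (p53 L/+) and a fluorescent reporter (Rosa YFP/YFP). All groups shared this genotype, culture in DMEM with serum and SMART-Seq v4 cDNA, and a single line cannot show how other tumors behave.

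A processing experiment held 12 libraries of bulk RNA, 3 from each of 4 conditions: Pre-FACS cells banked before sorting, Mock cells kept on the benchtop in staining buffer, Pre-enriched cells taken through magnetic particles, red cell lysis buffer and in-line pre-enrichment to the BD Influx sorter, and FACS-only cells from that same particle-treated and lysis-treated sample run through the sorter with pre-enrichment left out. An input series held 31 libraries: 29 from lysates of pre-enriched and sorted cells (11 single cells, 12 pools of 10 cells and 6 pools of 100 cells) and 2 from RNA extracted from the bulk line as a control. The sources differ on whether these 2 came from sorted cells: their labels carry the same flow treatment as the sorted cells, while the study's account of the experiment names RNA of the bulk line. The labels mention a spike into mouse blood for all samples, and whether the cells of the processing experiment met blood was not settled. No source used here says that replicates came from separate cultures, so p-values measure the spread between these samples, which may be technical.

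Before S phase, the origin recognition complex with Cdc6 and Cdt1 loads the ring-shaped Mcm2 to Mcm7 helicase onto DNA. Cyclin E and its kinase, with Cdc45 and the GINS complex, then start the helicase, and primase, polymerases, the sliding clamp Pcna and its loader Rfc copy both strands while ribonucleotide reductase supplies deoxynucleotides. Transcription of many of these genes is known to rise toward S phase under E2F factors, and sustained E2F activity is a common feature of proliferating tumor cells.

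Short stretches of promoter sequence are shown because E2F is the regulator these genes are best known to share. RefSeq promoter windows (GRCm38.p6, 250 bases before to 50 bases after a gene's start) matched 38 of the 46 members, in 44 windows. The motifs searched, on both strands and with overlaps allowed, were TTTCCCGC, TTTCGCGC, TTTGCCGC and TTTGGCGC. At least 1 of them was present in 13 of the 44 member windows (29.5%), against 2.26% of all 32851 windows and 3.86% of the windows of genes tested in the processing experiment. The share was 27.1% in the windows of 73 further replication and G1/S genes and 2.94% in those of 35 G2/M and mitotic genes. CCAAT, a box read by NF-Y and often seen in promoters of mitotic genes, was in 54.5% of the member windows, 79.4% of the G2/M windows and 37.4% of all windows. A match is a description of letters and not a bound site. Distances are counted from the RefSeq start of the window. For Uhrf1, Cdc6 and Orc1 the GENCODE vM21 gene starts further upstream (chr17:56303321, chr11:98907801 and chr4:108579423), so by that annotation their matches lie inside the gene. The matches below belong to members that recur in the results, read on the strand of the gene, with the 8 matched bases in capitals; a match given as GCGGGAAA, GCGCGAAA or GCGCCAAA is the motif read from the other strand.
Cdc6 (chr11:98908003-98908030, plus strand, 138 bases before the start): ccggtggagaGCGGGAAAtcgcctgggg
Cdt1 (chr8:122568037-122568064, plus strand, 32 bases after the start): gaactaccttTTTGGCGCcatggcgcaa
Orc1 (chr4:108579417-108579444, plus strand, 27 bases before the start): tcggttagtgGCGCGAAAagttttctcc
Mcm5 (chr8:75109346-75109373, plus strand, 153 bases before the start): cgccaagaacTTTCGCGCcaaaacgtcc
Pold1 (chr7:44548766-44548786, minus strand, 39 bases after the start): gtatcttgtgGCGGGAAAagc
Uhrf1 (chr17:56304118-56304145, plus strand, 185 bases before the start): ccgagtcgggTTTCGCGCgcccaggcgt
These 6 belong to 3 licensing genes, a helicase subunit, the catalytic subunit of polymerase delta and Uhrf1, which guides maintenance of DNA methylation at the fork. The Mcm5 window also holds TTTGGCGC on the other strand, overlapping the match in capitals.

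In the processing experiment the members were well expressed. The median of their mean level over the 12 libraries was 81.0 TPM, against 29.4 TPM for all genes past the filter. Helicase subunits led the list, with Mcm6 at 297 ± 18.9 TPM (SD, n = 12 libraries), Mcm7 at 286 ± 14.8 TPM, Mcm2 at 253 ± 13.0 TPM and Mcm3 at 235 ± 17.8 TPM. Rrm2, the regulated small subunit of ribonucleotide reductase, stood among them at 258 ± 32.2 TPM, and Pcna at 223 ± 10.7 TPM. Mcm6 and Mcm7 overlapped in range, as did Rrm2 and Mcm2. The low end held Ccne2, the second E cyclin, at 11.4 ± 1.74 TPM, the GINS subunit Gins3 at 7.63 ± 1.48 TPM and the uracil-DNA glycosylase Ung at 2.24 ± 0.34 TPM. The SD of log2(TPM + 1) over the 12 libraries was 0.12 for the median member and 0.14 for the median gene.

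The 4 conditions were compared to ask whether benchtop time, sorting or pre-enrichment altered the cells. No member passed the test: limma's F test over the 4 conditions, with Benjamini-Hochberg adjustment over 12159 genes, called 0 of the 46 members (background 0.107% of all genes). An unadjusted p under 0.05 was reached by 1 member (2.17%), where 7.56% of all genes reached it, in a model without a term for replicate number. The lowest F-test p values among members were those of Ccne1 (p = 0.0454, adjusted p = 0.657), Gins1 (p = 0.0554), Rpa2 (p = 0.0764), Orc1 (p = 0.0959), Prim2, Mcm10, Pole2 and Gins4. Levels of a bulk sample do not tell fewer cells in a phase from less RNA per cell.

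The score of the members, their mean log2(TPM + 1) in a library, ran from 5.96 to 6.18 over the 12 libraries. It was 6.02, 6.18 and 6.15 in the Pre-FACS libraries and 6.04, 6.17 and 6.13 in the Mock libraries. FACS-only libraries had 5.96, 6.14 and 6.13, and Pre-enriched libraries 6.02, 6.13 and 6.14. The ranges of the 4 conditions overlapped. In each condition replicate 1 was the lowest, and the G2/M score of 35 genes was lowest in the same 4 libraries.

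**Figure D1:**
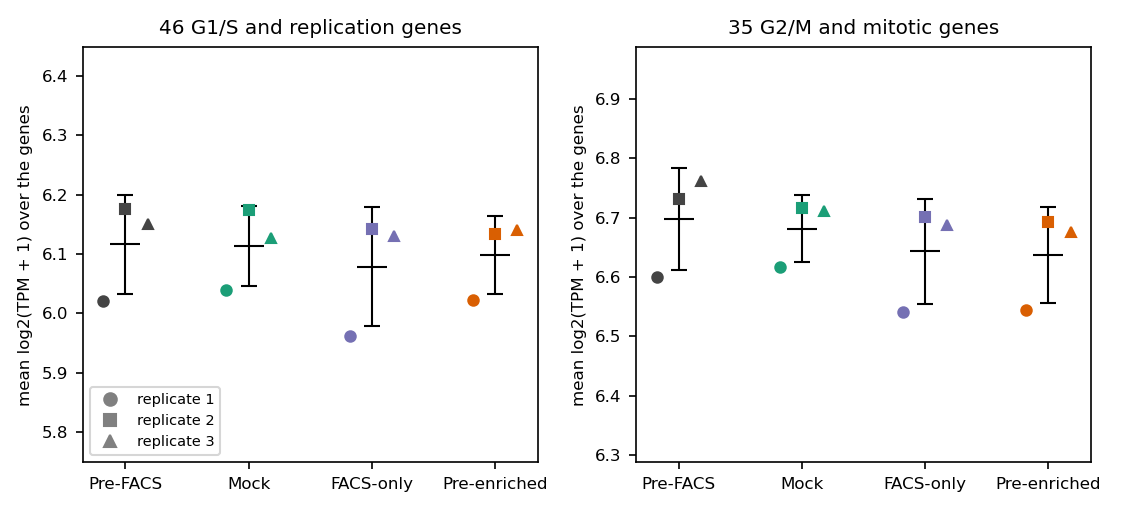
Mean log2(TPM + 1) of the 46 members (left) and of 35 G2/M genes (right) in each of the 12 libraries of the processing experiment; colours mark conditions, marker shapes replicate numbers, and bars the mean ± SD of 3 libraries. The conditions overlap, and the lowest library of each is replicate 1; both axes are cut and do not start at 0.

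Pair by pair, differences of the 46 members stayed between -0.35 and 0.28 on the log2(TPM + 1) scale, and none passed the test. With limma and Benjamini-Hochberg adjustment, 0 of 46 were called between Pre-enriched and Pre-FACS cells (background 0.0493%), FACS-only and Pre-FACS (0.123%), Mock and Pre-FACS (0.00822%), Pre-enriched and Mock, Pre-enriched and FACS-only, or FACS-only and Mock (background 0% in the last 3). Unadjusted p under 0.05 was reached by 1, 1, 2, 1, 0 and 2 members in the same order. Of all genes 9.18%, 6.96%, 4.53%, 7.77%, 6.75% and 5.63% reached it, against at most 4.35% of members. This model held no term for replicate number. With replicate number added as a block, 6, 2, 4, 4, 1 and 3 of the 46 members reached an unadjusted p under 0.05, and 0 passed adjustment. The share of all genes at that p is not given for the block model. The lower share of members therefore holds only without the block, and does not show that processing changed members less than other genes. The median difference of the members on the log2(TPM + 1) scale was -0.020, -0.036, -0.00028, -0.0067, 0.016 and -0.031, where the medians of all genes lay between -0.014 and 0.0035. The median standard error of a member's difference was 0.092. In data simulated for Pre-enriched against Pre-FACS, a change of 1 on the log2 scale was recovered in 90.5% of 200 changed genes and a change of 0.5 in 48.5%, so changes below this size could go uncalled.

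Members whose 3 libraries of a condition lay apart from the 3 of the other were few and near or below the share of all genes. Between Pre-enriched and Pre-FACS cells 3 lay higher (6% of all genes did) and 2 lower (8.24%). Between FACS-only and Pre-FACS cells 0 lay higher (5.81%) and 0 lower (5.8%), and between Mock and Pre-FACS cells 3 lay higher (4.93%) and 0 lower (4.41%). Between Pre-enriched and Mock cells 2 lay higher (6.6%) and 1 lower (8.81%), between Pre-enriched and FACS-only cells 2 higher (4.91%) and 1 lower (7.41%), and between FACS-only and Mock cells 0 higher (5.11%) and 2 lower (5.4%).

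**Figure D2:**
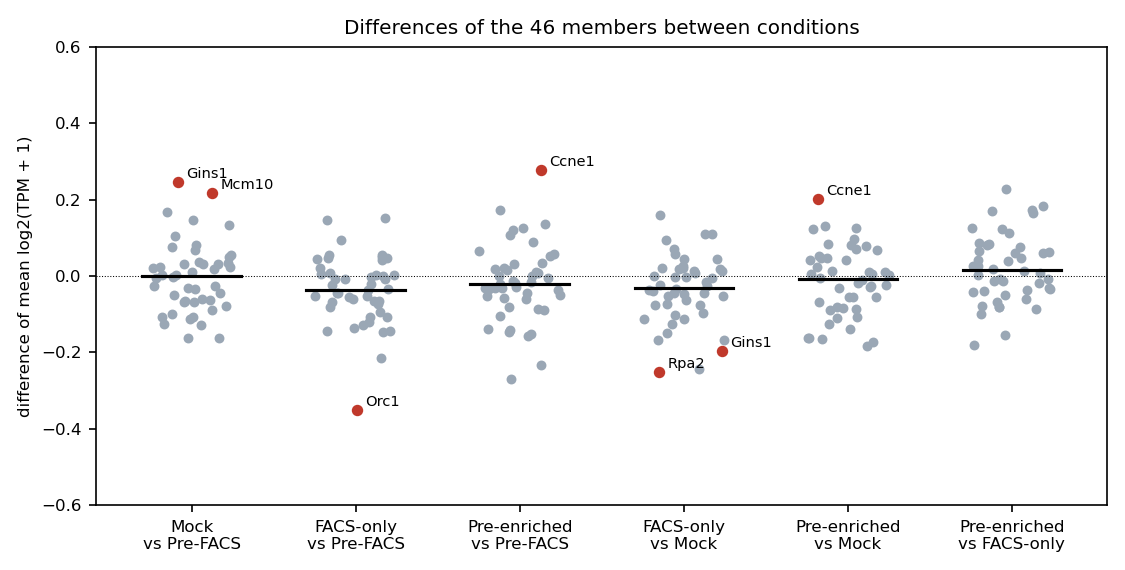
Difference of mean log2(TPM + 1) between conditions for each of the 46 members in the 6 pairs; each point is a gene, the black line is the median, and named red points have an unadjusted p under 0.05 in limma, none of which passed adjustment. Medians lie between -0.036 and 0.016.

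Among regulators of G1/S, Ccne1, which encodes cyclin E1 (chr7:38097984-38107534, minus strand, GRCm38), had the lowest p. Its level was 25.8, 31.0 and 30.1 TPM in Pre-FACS libraries and 33.3, 36.5 and 35.8 TPM in Pre-enriched libraries. Mock libraries had 30.1, 31.3 and 29.9 TPM and FACS-only libraries 29.0, 31.8 and 31.9 TPM. The Pre-enriched libraries thus lay above the 9 others without overlap. The difference from Pre-FACS was 0.28 on the log2 scale (SE 0.091, limma p = 0.00764) and did not pass adjustment (adjusted p = 0.346). Against Mock cells the Ccne1 difference was 0.20 (limma adjusted p = 0.628) and against FACS-only cells 0.18 (adjusted p = 0.762).

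Among helicase activation genes, Gins1, a GINS subunit (chr2:150905400-150931280, plus strand), measured 21.3, 21.6 and 22.7 TPM in Pre-FACS and 26.0, 26.4 and 25.7 TPM in Mock libraries. FACS-only libraries had 23.5, 22.2 and 22.1 TPM, and Pre-enriched libraries 24.3, 23.9 and 24.0 TPM. Mock libraries were highest, with no overlap with the other conditions, and differed from Pre-FACS by 0.25 (SE 0.086, limma p = 0.0118, adjusted p = 0.997) and FACS-only from Mock by -0.20 (adjusted p = 0.875). Mcm10, which helps activate the loaded helicase, was at 31.3, 35.1 and 36.3 TPM in Pre-FACS and 38.8, 39.7 and 41.1 TPM in Mock libraries. It was at 35.3, 40.6 and 38.6 TPM in FACS-only and 32.7, 32.9 and 41.6 TPM in Pre-enriched libraries, so Mock lay above Pre-FACS without overlap (0.22, limma p = 0.0478, adjusted p = 0.997) and the sorted conditions spanned both. Gins4, another GINS subunit, was between 92.2 and 119 TPM in all 12 libraries.

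Among licensing, priming and single-strand binding genes, Orc1, the ATPase subunit of the origin recognition complex, measured 20.9, 22.0 and 23.2 TPM in Pre-FACS libraries and 14.6, 15.0 and 22.6 TPM in FACS-only libraries. Mock libraries had 18.5, 21.1 and 21.6 TPM and Pre-enriched libraries 18.1, 16.8 and 19.4 TPM. FACS-only replicate 3 lay within the Pre-FACS range while the other 2 did not, and the difference of -0.35 (SE 0.14, limma p = 0.0243) did not pass adjustment (adjusted p = 0.612). Pre-enriched libraries lay below Pre-FACS without overlap (-0.27, limma adjusted p = 0.594). Rpa2, a subunit of the single-strand binding protein RPA, was at 55.6, 60.8 and 65.7 TPM in Mock and 47.3, 50.2 and 54.8 TPM in FACS-only libraries. Pre-FACS libraries had 52.1, 60.9 and 51.3 TPM and Pre-enriched libraries 54.0, 53.1 and 57.8 TPM. FACS-only lay below Mock without overlap, by -0.25 (SE 0.088, limma p = 0.0113, adjusted p = 0.812). Prim2, the large primase subunit, was at 33.3, 32.6 and 30.7 TPM in Pre-FACS, 33.8, 37.7 and 37.5 TPM in Mock, 28.8, 32.4 and 35.7 TPM in FACS-only and 34.0, 37.8 and 37.5 TPM in Pre-enriched libraries. Its Pre-FACS libraries lay below those of Mock and Pre-enriched cells without overlap, by 0.17 in each pair, with limma p of 0.0918 and 0.0836 before adjustment. Pole2, a polymerase epsilon subunit, ranged from 18.5 to 25.5 TPM, and its largest difference was 0.23 between Pre-enriched and FACS-only cells, whose values overlapped (limma adjusted p = 0.771).

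Other lowest-p members of a pair were Mcm3 (Pre-enriched 200, 232 and 234 TPM, Pre-FACS 231, 244 and 264 TPM), Rfc2 in FACS-only against Pre-FACS (difference -0.14), and Mcm4 and Rrm1 in Pre-enriched against Mock (-0.17 for each). All 4 had overlapping groups. Of the 73 further replication and G1/S genes 0 were called by the F test and 0 in each of the 6 pairs. At an unadjusted p under 0.05 there was 1 in the F test (7.56% of all genes). In a pair there were 1 to 3 (4.53% to 9.18% of all genes). The further genes of lowest F-test p were Ccnd3, which encodes cyclin D3 (p = 0.0400), Msh6, a mismatch repair gene (p = 0.0716), and Supt16, which encodes a subunit of the histone chaperone FACT (p = 0.102). Ccnd3 stood between 118 and 125 TPM in Pre-FACS and between 95.9 and 114 TPM in the 9 other libraries. Among the 35 G2/M genes, Kifc1, which encodes a spindle kinesin, was called (F test adjusted p = 0.0314), at 20.8 ± 2.52 TPM in Pre-FACS, 16.2, 17.4 and 17.3 TPM in the Mock libraries, 12.4 ± 0.80 TPM in FACS-only and 11.3 ± 1.67 TPM in Pre-enriched cells (SD, n = 3).

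The replicate number, examined after the values were seen, moved with the members. Of the 46 members 36 had their lowest level in a replicate 1 library, where 38.3% of all genes past the filter had theirs. In a limma F test on replicate number with condition as a term, 3 of 46 members were called, against 1.29% of all genes: Rrm2 (adjusted p = 3.2e-05), Rrm1 (adjusted p = 0.0154) and Mcm4 (adjusted p = 0.0202), and 24 members (52.2%) had an unadjusted p under 0.05, where 13.4% of all genes did. Rrm2 was at 233, 212, 213 and 212 TPM in the replicate 1 libraries of Pre-FACS, Mock, FACS-only and Pre-enriched cells, and between 269 and 304 TPM in the 8 others, without overlap. Of the 35 G2/M genes 1 was called and 19 (54.3%) had an unadjusted p under 0.05. The labels do not say what the number stands for.

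Some libraries of the input series went against their labels or stood apart, which bears on what follows. Single cells 6 and 9, 10-cell pools 5 and 12 and 100-cell pools 1 to 3 correlated with each other at r = 0.967 to 0.996 across genes (21 pairs, log2(TPM + 1)), whereas the 9 other single cells correlated at 0.537 to 0.730 and the 10 other 10-cell pools at 0.865 to 0.949. Single cells 6 and 9 had 11438 and 11223 genes of at least 1 TPM, while the 9 others had 3919 to 8598. Epithelial keratins and adhesion genes (8 listed) summed to 3463 to 30203 TPM in single cells and to 28273 to 28793 TPM in bulk RNA. The 7 mesenchymal genes listed summed to 0.63 to 764 TPM and to 226 to 242 TPM. In the processing experiment the 2 sums were 24772.5 to 28295 TPM and 1508 to 1641 TPM. Within the epithelial list Epcam was lower there than in the bulk RNA of the input series (32.1 to 38.9 against 811 and 842 TPM). Muc1 was higher there (854 to 987 against 56.0 and 51.8 TPM). In the input series the 5 blood genes present in the table, of 18 listed, summed to 0 to 322 TPM in single cells and 46.5 to 62.4 TPM in bulk RNA. Single cell 11 had both the lowest epithelial sum and the highest blood sum of the single cells, with Alas2 at 278 TPM. The part of these libraries and markers in the results was not tested. The genes of this table hold between 54.2% and 99.99% of the fixed TPM total in single cells, and a value listed at 0 can be a failed estimate. Depth is not known library by library, though the paper gives mean depths for this series and a minimum per sample.

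Single cells differed in the members far more than pools did. The member score was 2.58, 1.26, 5.95, 5.71, 4.98, 5.17, 2.43, 2.95, 4.75, 3.85 and 1.57 in single cells 1 to 11, a median of 3.85, or 2.95 without single cells 6 and 9. The 10-cell pools ran from 3.07 (pool 7) to 5.81 (pool 2) with a median of 4.92, or 4.81 without pools 5 and 12, and the bulk RNA libraries were at 5.45 and 5.47. Single cells 3 and 4 thus exceeded both bulk RNA libraries, as did 2 of the 12 pools of 10. Members of at least 1 TPM numbered 11 to 46 of 46 in single cells (median 31, or 25 without single cells 6 and 9) and 33 to 46 in 10-cell pools (median 45).

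**Figure D3:**
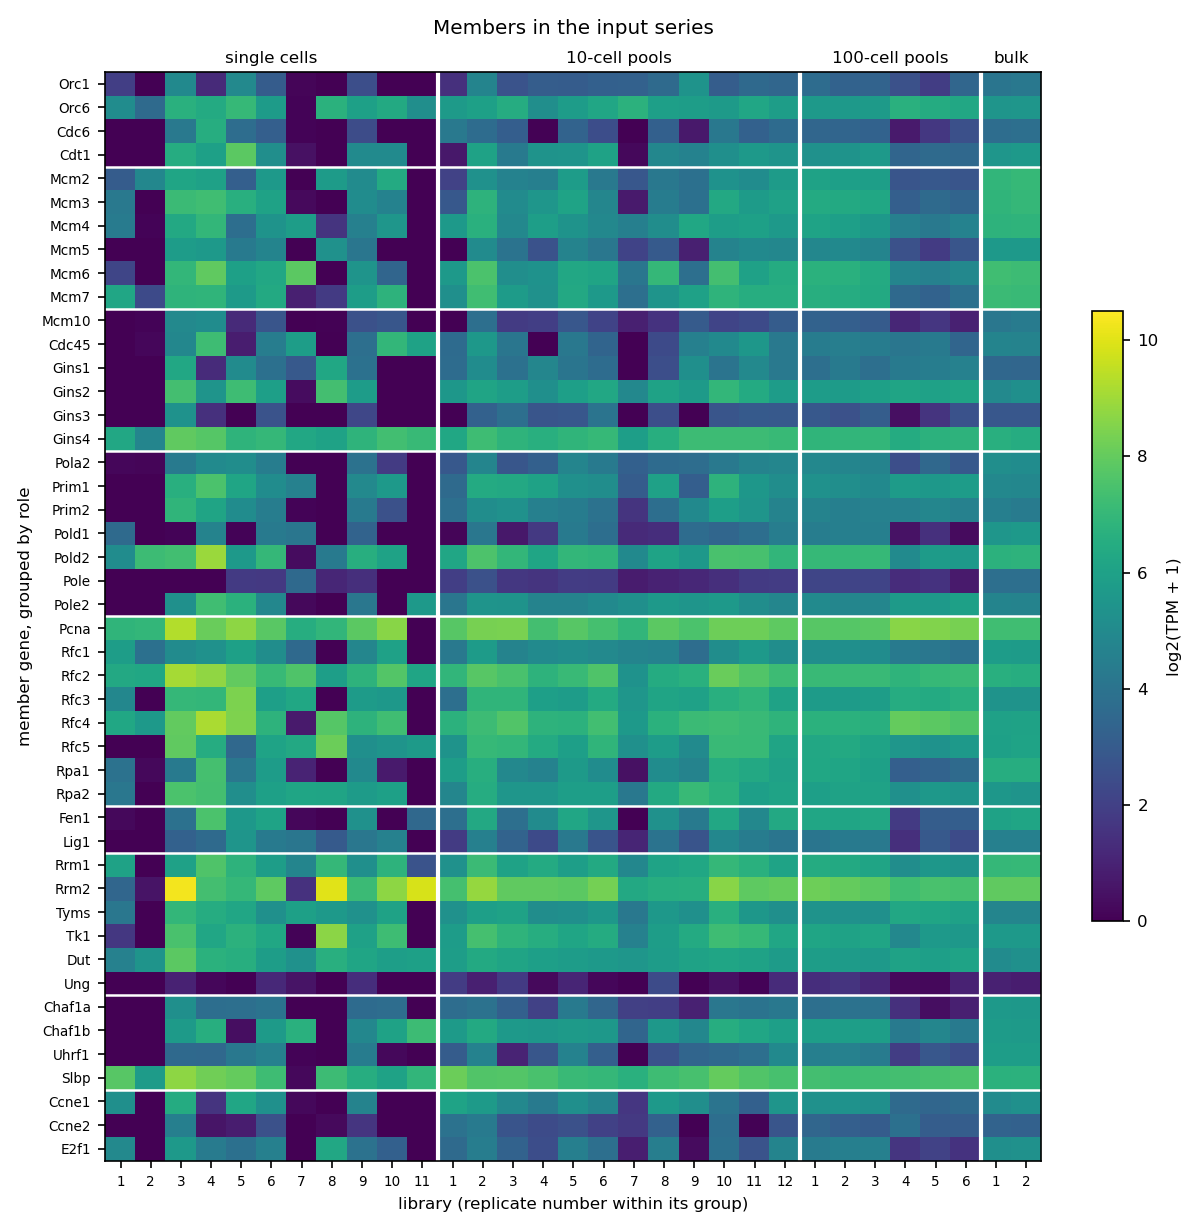
log2(TPM + 1) of the 46 members (rows, grouped by role with white lines between roles) in the 31 libraries of the input series (columns, by replicate number within each group). Single cells 2 and 11 list most members near 0, single cells 3 to 5 list nearly all of them, and 100-cell pools 4 to 6 differ from pools 1 to 3 in the helicase rows.

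The number of genes detected did not order the cells in the same way. Of the 8708 genes that reached 10 TPM in each of the 2 bulk RNA libraries, 42 were members. Single cell 1 detected 84.9% of the 8708 genes at 1 TPM or more but 59.5% of the 42 members. Single cell 3 detected 59.1% of the genes but 95.2% of the members, and single cell 4 detected 70.0% and 97.6%. Single cell 2 detected 61.6% of the genes and 26.2% of the members. Over the 9 single cells other than 6 and 9 the member score correlated with the number of genes of at least 1 TPM at r = 0.27 (Spearman 0.27), and over the 10 pools other than 5 and 12 at r = 0.84 (0.96). These are descriptions over libraries whose individual depth is unknown and which share the scaling of their table.

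The G2/M score followed the member score in most but not all cells. It was 1.01, 0.54, 4.75, 5.16, 4.81, 5.16, 0.98, 4.64, 4.75, 4.89 and 0.45 in single cells 1 to 11, so that 4 cells lay below 2 and 7 above 4. Across the 9 single cells r between both scores was 0.86 (Spearman 0.87), and across all 11 it was 0.88 (0.85). Single cell 8 joined a member score of 2.95 with a G2/M score of 4.64, and single cell 10 joined 3.85 with 4.89. In single cell 8, 27 of the 35 G2/M genes and 23 of the 46 members reached 1 TPM. The 10-cell pool of lowest member score, pool 7, also had the lowest G2/M score of the 12 pools, at 1.86.

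**Figure D4:**
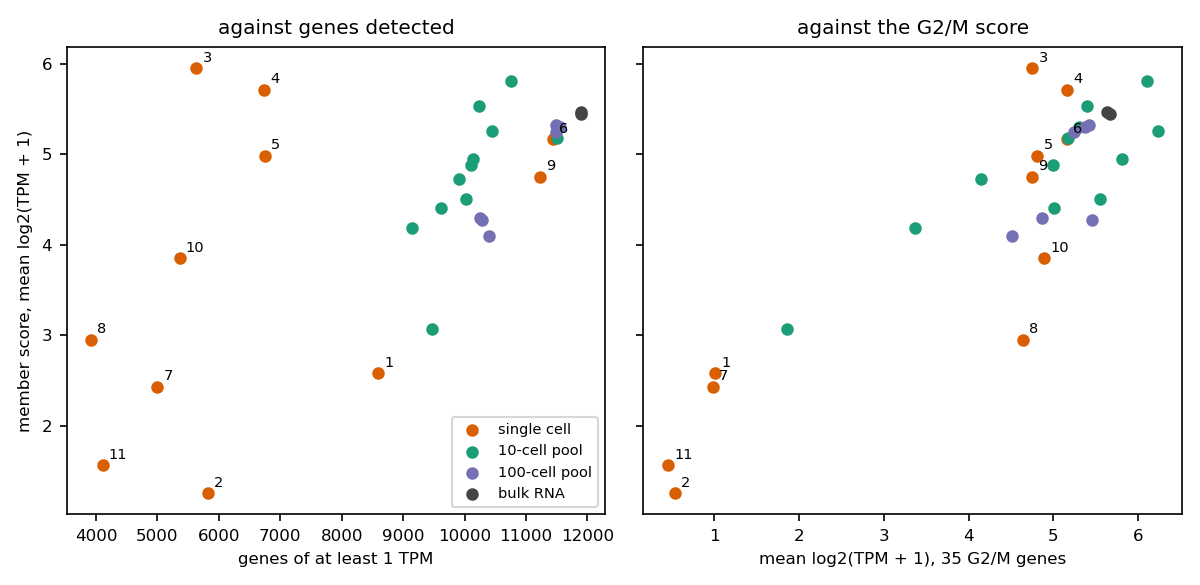
Member score, the mean log2(TPM + 1) of the 46 members, against the number of genes of at least 1 TPM (left) and against the score of 35 G2/M genes (right) for the 31 libraries of the input series; colours mark the input and numbers name single cells. Single cells 3 to 5 have high member scores with 5631 to 6744 genes detected, and single cells 1, 2, 7 and 11 lie low on both scores.

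By role, the complexes were seen in part in many cells. All 6 subunits of the Mcm2 to Mcm7 helicase reached 1 TPM in single cells 3, 4 and 5, and also in 6 and 9. Single cells 1 and 10 had 5 of the 6, single cell 8 had 4, single cells 2 and 7 had 2, and single cell 11 had 0. Of the 4 origin recognition and licensing genes, 4 reached 1 TPM in single cells 3, 4 and 5 and 0 in single cell 7. Gins4 was detected in all 9 of the cells other than 6 and 9 (26.1 to 243 TPM), its partner subunits Gins1 in 5, Gins2 in 4 and Gins3 in 2.

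Across the 11 single cells the highest medians belonged to Pcna, Rrm2, Slbp and Rfc2. Pcna ran from 0 to 631 TPM with a median of 223 TPM. Slbp, which binds the stem-loop of histone mRNA, ran from 0.16 to 424 TPM with a median of 145 TPM. Rfc2, a clamp loader subunit, was present in every single cell, between 58.3 and 546 TPM with a median of 134 TPM, and Dut, which clears dUTP, between 23.5 and 229 TPM. The order changed without single cells 6 and 9. Rfc2 then had the highest median (192 TPM), followed by Rrm2 (166 TPM), Rfc4 (156 TPM), Slbp (145 TPM) and Pcna (122 TPM). In the 9 single cells other than 6 and 9, 3 of 46 members (Rfc2, Gins4 and Dut) reached 1 TPM in all 9; among genes of at least 10 TPM in bulk RNA, 7.14% of members and 17.8% of all genes did so.

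Rrm2 (chr12:24708241-24714146, plus strand) had the widest span in TPM. It stood at 1265 TPM in single cell 3, 1045 TPM in single cell 8 and 918 TPM in single cell 11, against 10.1 TPM in single cell 1, 1.81 TPM in single cell 7 and 0.48 TPM in single cell 2. In single cell 11, the cell of lowest epithelial and highest blood sum, Rrm2 made up 55.0% of the summed TPM of the 46 members, of which 12 reached 1 TPM. For Rrm2 the 10-cell pools ran from 80.6 to 462 TPM (median 241 TPM), and bulk RNA had 243 and 244 TPM. Every pool of 10 was therefore below the 3 highest single cells and above the 3 lowest.

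Across the 11 single cells the lowest medians belonged to Cdc6, Pole, Gins3 and Ung. Cdc6, the helicase loader, ran from 0 to 93.0 TPM with a median of 0.064 TPM and reached 1 TPM in 5 of 11 cells. Pole, the catalytic subunit of polymerase epsilon, had a median of 0 and a highest value of 10.9 TPM. Gins3 had a median of 0 and a highest value of 40.3 TPM, and Ung, low in bulk RNA at 0.92 and 0.78 TPM, did not pass 1.62 TPM in any cell. With single cells 6 and 9 left out, the median was 0 for Cdc6, Pole, Gins3 and Ung, and also for Mcm5, Chaf1a and Ccne2. With the depth of each cell unknown, a value at 0 does not show absence.

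The linear mean over the single cells nevertheless came close to that over the pools for most members. The log2 ratio of the mean TPM of 11 single cells to that of 12 pools had a median of -0.025 over the members, and 44 of 46 lay within 1 of zero, where all genes past the filter had a median of -0.36 and 10559 of 12325 lay within 1. Without single cells 6 and 9 the member median was 0.0054 and that of all genes -0.51. The SD of log2(TPM + 1) had a median over members of 2.48 among 11 single cells and 0.88 among 12 pools (1.73 and 0.68 over all genes). This SD was larger in single cells for 45 of 46 members and 10564 of 12325 genes. Among 8707 of the better expressed genes, with bulk levels of 10 TPM or more, the SD was larger in single cells for 8533. Their median SDs were 2.00 and 0.61, so a larger SD in single cells was not particular to the members. Among the pools of 10 the widest SDs were those of Cdt1 (1.96), which loads the helicase, Cdc45 (1.89), a partner of the active helicase, Fen1 (1.78), the flap nuclease of Okazaki fragments, and Mcm5 (1.70).

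The pools of 100 fell into separate levels. Pools 1 to 3 had member scores of 5.33, 5.30 and 5.24, and pools 4 to 6 had 4.10, 4.28 and 4.30; the pools were not tested against each other since the split was seen in the data. Mcm2 (chr6:88883474-88898780, minus strand) was at 65.8, 59.6 and 57.8 TPM in pools 1 to 3 and at 5.82, 6.49 and 5.87 TPM in pools 4 to 6. Pcna (chr2:132249162-132253314, minus strand) went the other way, at 217, 212 and 222 TPM against 394, 367 and 327 TPM. Of the 46 members 30 were lower and 10 higher in pools 4 to 6 without overlap (65.2% and 21.7%), where 58.8% and 15.9% of all genes were.

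Pools of 10 were compared with bulk RNA to ask how far a small input keeps the bulk profile; input, lysate against extracted RNA and any difference in sorting cannot be told apart here. Most genes were lower in the pools: the median difference on the log2(TPM + 1) scale was -0.88 over 12037 genes and -0.64 over the 46 members, which is 0.23 above the median gene. In limma with Benjamini-Hochberg adjustment over all genes tested, 7 of 46 members (15.2%) were lower, against 33.5% of all genes, and 2 (4.35%) were higher, against 7.93%. Under quantile normalization, which forces 1 distribution on all libraries, the median of all genes became 0.14 and that of the members 0.43. The split of the 46 members became 1 lower, against 14.8% of all genes, and 11 higher, against 18.2%. With bulk RNA library 1 left out the median difference of the members was -0.70 (all genes -0.86), and with library 2 left out -0.61 (all genes -0.88). In both fits fewer members and fewer of all genes were called. The calls named below thus rest on having both bulk RNA libraries.

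The members called lower were Pole, Mcm2, Mcm4, Chaf1a, Mcm10, Uhrf1 and Pold1. Pold1 (chr7:44532746-44548849, minus strand) had 0.12 to 21.0 TPM in the pools with a median of 11.0 TPM, and 44.3 and 49.6 TPM in bulk RNA, a difference of -2.84 (SE 1.01, limma adjusted p = 0.0321). Uhrf1 had 0 to 30.9 TPM (median 8.88 TPM) against 55.7 and 56.8 TPM, a difference of -2.68 (SE 0.94, limma adjusted p = 0.0301). Mcm2 had 3.14 to 55.6 TPM (median 23.1 TPM) against 118 and 128 TPM, a difference of -2.48 (SE 0.73, limma adjusted p = 0.0126). All 12 pools lay below both bulk RNA libraries for these 3 genes.

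Chaf1a, the large subunit of the CAF-1 histone chaperone, had 0.94 to 19.3 TPM in the pools against 51.0 and 47.1 TPM, a difference of -2.47 (SE 0.76, limma adjusted p = 0.0164). Pole had 0.76 to 5.02 TPM against 13.2 and 13.4 TPM, a difference of -2.21 (SE 0.47, limma adjusted p = 0.00200). Mcm10 had 0 to 13.2 TPM against 16.8 and 19.7 TPM (-2.13, limma adjusted p = 0.0261), and Mcm4 21.9 to 99.4 TPM against 110 and 112 TPM (-1.24, limma adjusted p = 0.0243). Again all 12 pools lay below both bulk RNA libraries. Each of the 7 kept its sign under quantile normalization, where Mcm2 alone of them stayed past the threshold (-2.08, limma adjusted p = 0.00989).

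The members called higher were Dut and Rfc4. Dut had 45.0 to 81.0 TPM in the pools against 32.8 and 37.9 TPM, all 12 pools above both bulk RNA libraries, a difference of 0.75 (SE 0.24, limma adjusted p = 0.0184). Rfc4, a clamp loader subunit (chr16:23113943-23127737, minus strand), had 50.6 to 200 TPM against 62.8 and 64.8 TPM, with 11 of 12 pools above both, a difference of 0.92 (SE 0.33, limma adjusted p = 0.0346). Rrm2 differed by -0.24 (95% interval -1.31 to 0.83) and Pcna by 0.51 (-0.12 to 1.14). Over the 6 Mcm2 to Mcm7 genes the differences ran from -2.48 to -1.22, and 2 of the 6 were called.

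**Figure D5:**
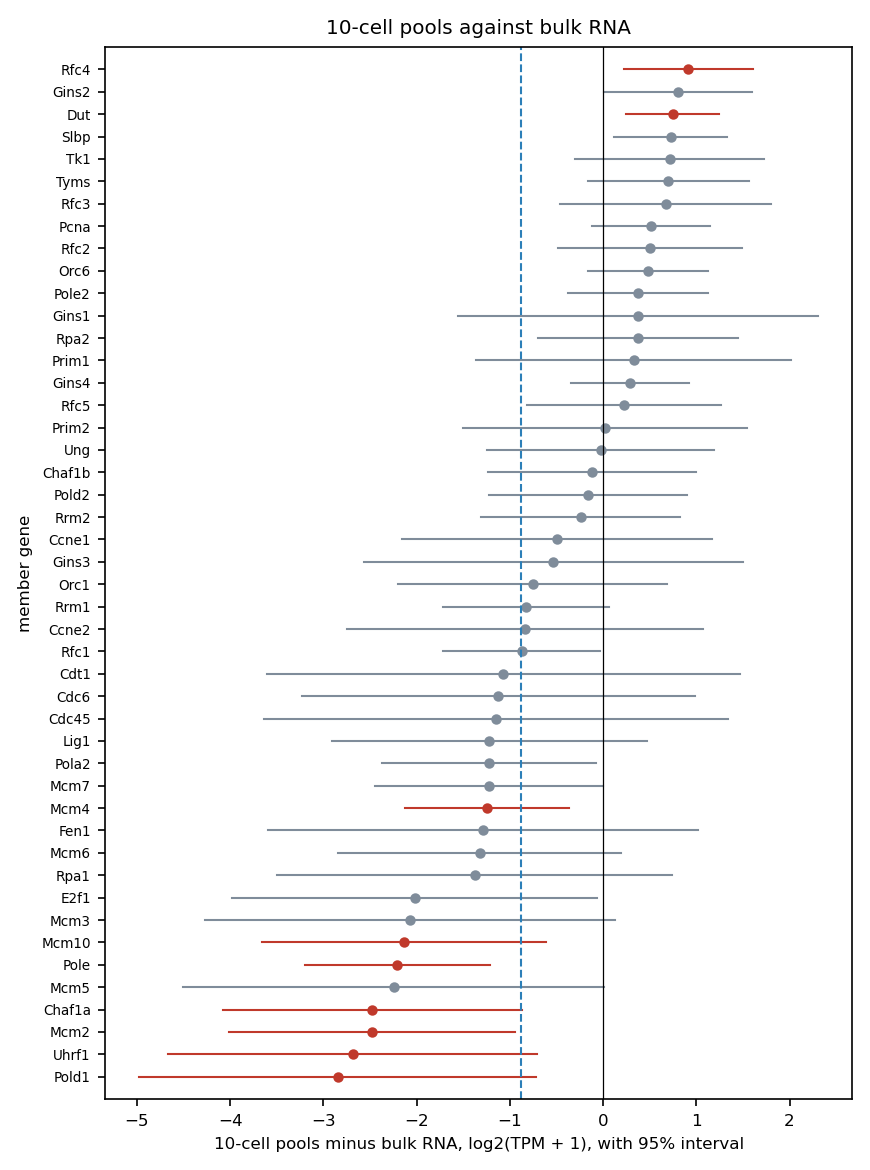
Difference of mean log2(TPM + 1) between 12 pools of 10 cells and 2 bulk RNA libraries for each of the 46 members, with the 95% interval from limma; red marks an adjusted p under 0.05 and the dashed line the median of all 12037 genes, -0.88. The 6 Mcm2 to Mcm7 genes lie below the dashed line, and the called genes above 0 are Dut and Rfc4; under quantile normalization 10 of the 29 members below 0 move above it.

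Transcript length moved with this difference. Taking the longest annotated transcript of each gene (GENCODE vM21, found for 46 of 46 members and 96.4% of the genes tested), the difference correlated with log2 length at r = -0.54 over the members (Spearman -0.49) and -0.50 over all genes tested (-0.56), and with GC content at r = -0.43 over the members and -0.20 over all genes. Pole and Chaf1a, among the lower members, have longest transcripts of 7163 and 7698 bases, and Rfc4, the highest, 1279 bases. Other members went against this order. Gins2 (3900 bases) and Rfc2 (4995 bases) were higher in the pools, by 0.80 and 0.51, while Cdc45 (2143 bases) and Fen1 (2373 bases) differed by -1.15 and -1.29. Genes are not independent replicates, and the part of length in the result was not tested.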

How the data were processed

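RNA-seq of PD798 cells was taken from 2 deposited tables of TPM, covering 43 libraries. Per the paper's methods and the labels, the authors aligned paired-end reads with STAR to mm10 with spike-in sequences, counted them with featureCounts, normalized by upper quartile with EDASeq and deposited TPM from effective gene lengths; the annotation is not given in the sources used here. TPM keeps no depth, so no read number or counting error could be given for a library, and tests were run within a table.

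Values were taken to log2(TPM + 1), and genes that reached 1 TPM in 3 or more libraries were fitted with limma 3.58.1 (R 4.3.3, empirical Bayes with trend): 1 model over 12 libraries for the 4 conditions, and 12 pools of 10 cells against 2 bulk RNA libraries. Benjamini-Hochberg adjustment covered all genes tested, with a threshold of 0.05. The model was tested on simulated data. Single cells and 100-cell pools were described without a test (Python 3.11.15, numpy 2.4.6, pandas 2.3.3, scipy 1.17.1). Members and lists were chosen with earlier results of these data known. Members described with statistics, by library values or ranges, were the 8 of lowest F-test p, the 3 of lowest p per pair, members called, and in the input series the 4 highest and lowest medians in single cells, the 4 widest SDs over 10-cell pools and the 4 largest differences from bulk RNA. Part of the genotype of the line is not reported here.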

Additional observations from a re-analysis of the deposited data

Results flagged for a closer look

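Among the 6 pools of 100 cells, Rfc2 stood out for a library far from the others: its lowest value, 113 TPM in pool 4, lay at a gap to the next that was 0.711 of the whole range of 113 to 139 TPM. Of 48 values tested in this group 1 met this criterion, and chance flags about 1 in 20 groups.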

How the results depend on the processing

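In the 4-condition comparison and its 6 pairs, 0 members were called in the main analysis and under all 139 alternative counts, which covered another pseudocount, other filters, quantile normalization, no trend, fits of 2 conditions, an adjusted p under 0.1, the replicate block and each library left out; the lowest adjusted p of any member with the replicate block was 0.185. Whether replicate numbers pair libraries by design is not known, and the main model held no term for them. Correlations were taken over deviations from the condition means, between libraries of different conditions. Same-numbered libraries correlated over 0.1 in 2 of 18 pairs (median 0.069) and differently numbered ones in 0 of 36 (median -0.030). Of the 12 libraries 9 correlated best with their own number. Under the replicate block the genes called between Pre-enriched and Pre-FACS went from 6 to 37. Between FACS-only and Pre-FACS they went from 15 to 77, and none of these genes were members. Members with an unadjusted p under 0.05 went from 1 to 6 and from 1 to 2 in the same pairs.
For pools of 10 against bulk RNA, the median difference of the members turned from -0.64 to 0.43 under quantile normalization, which moved the median of all genes from -0.88 to 0.14; relative to all genes the members stayed 0.064 to 0.37 higher in all alternatives. The cause was not tested. Leaving out 1 bulk RNA library gave fewer calls among members and among all genes, with the lone library assumed to vary like the pools. The other alternatives gave 6 to 12 members called in place of 9. In these, 14.8% to 37.5% of all genes were called lower and 6.7% to 18.2% higher. The mean score of bulk RNA moved from 5.46 to 5.40 with a pseudocount of 0.1. TPM without depth limits what a low value in a single cell can show.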
